A study of Bos taurus with 72 samples.

Results

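ACTB and GAPDH, the genes most often used as references in qPCR, were read from RNA-seq of bovine mammary epithelial cells (BMECs) deprived of essential amino acids (EAA). They were chosen by their identifiers, ENSBTAG00000026199 for ACTB and ENSBTAG00000014731 for GAPDH, and are 2 of the 29550 genes in the deposited table. All cells were wild type and of 6 passages, were grown with serum, insulin, prolactin, hydrocortisone and epidermal growth factor, and were kept without serum overnight before 6 h in 1 of 12 media. POS was complete DMEM-F12, NEG was DMEM-F12 from which every EAA had been left out, and the other 10 media were NEG with only Arg, His, Ile, Leu, Lys, Met, Phe, Thr, Trp or Val put back at its level in POS. Each medium had 6 replicates, which gave 72 libraries. The replicates are described as biological, but whether they came from separate animals or cell isolations is not stated, so the p-values measure the spread between these libraries. The methods and the sample labels name different culture plates and library kits, which all libraries share.

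β-actin, the product of ACTB, forms the filaments of the cytoskeleton, and its gene is known to respond to serum and growth signals. GAPDH encodes the enzyme that oxidises glyceraldehyde 3-phosphate in glycolysis, and its transcription is known to follow the metabolic state of a cell. A reference gene in qPCR is a transcript whose level is taken to be the same in all samples, so that the level of a target is read relative to it, and any change of the reference is passed on to the target with its sign turned. Expression was measured here as FPKM, the reads on a gene set against its length and the size of the library, with a scaling between libraries set by the authors. The table gives identifiers without symbols, and 0 of them matched the 37063 entries of the bovine RefSeq table, so that epithelial and fibroblast markers were not looked up and the cell type was not checked. In bulk RNA, fewer cells of a type and less RNA per cell cannot be told apart.

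Both genes were among the most abundant transcripts. ACTB ranked 10 by mean FPKM and held between 0.284% and 0.937% of the reads of a library, or 34058 to 159686 reads. GAPDH ranked 27 and held between 0.0869% and 0.421%, or 10435 to 67006 reads. At the lowest of these counts the counting error was 0.542% for ACTB and 0.979% for GAPDH, far below the differences between libraries described here. The libraries held 12006111 to 18602430 reads on genes. In 3 libraries fewer genes were above 0 than in any other, with 10495 in Leu_1, 11838 in Arg_4 and 13537 in POS_4, against up to 18393 in Val_3. Each of these 3 libraries had the lowest GAPDH of its medium, and the fold changes, ratios and DEG counts for Leu, Arg and POS are therefore given with and without them.

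ACTB was highest in the complete medium and lower than in NEG in most media with a single EAA. In NEG, FPKM of ACTB ran from 2798 through a median of 2940 to 3725, with a mean of 3066 ± 341 (SD, n = 6). In POS they ran from 4038 through 4475 to 4906, with a mean of 4497 ± 349. The lowest POS library lay above the highest of the other 66 libraries, which was NEG_2 at 3725, so ACTB separated the complete medium from the 11 media that lacked EAA. How many of all genes set POS apart in this way was not counted, so the separation cannot be called unusual.

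The lowest means of ACTB were those of Ile, His and Leu. With Ile the FPKM were 1806 at the lowest, 2310 at the median and 2406 at the highest (2209 ± 233). With His they were 2002, 2299 and 2418 (2239 ± 179). With Leu they were 1608, 2370 and 2539 (2261 ± 356), and the lowest value was that of Leu_1. All 18 libraries of these 3 media lay below the lowest NEG library. Arg (2011, 2601 and 2759), Lys (2424, 2581 and 2699) and Phe (2500, 2654 and 2763) also lay wholly below NEG. Values of Val (2388, 2554 and 2888), Met (2250, 2547 and 3226), Trp (2523, 2717 and 2828) and Thr (2696, 2810 and 3044) overlapped with those of NEG. In Met, Trp and Val 5 of the 6 libraries were below all of NEG, and in Thr 2 of 6 were.

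GAPDH followed a different order, with NEG at the top. In NEG, FPKM of GAPDH ran from 1725 through a median of 1799 to 2633, with a mean of 1927 ± 349 (SD, n = 6), and the highest value again came from NEG_2. In POS they ran from 624 in POS_4 through 1233 to 1644, with a mean of 1208 ± 371. The lowest NEG library exceeded the highest of the other 66 libraries, Arg_3 at 1666, so GAPDH was lower in every library that had received any EAA, the complete medium included. The share of all genes that set NEG apart in this way was not counted either.

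Within the media with a single EAA, GAPDH was lowest with Leu and Val. With Leu the FPKM were 479 at the lowest, 1085 at the median and 1245 at the highest (1012 ± 271), and with Val 868, 958 and 1594 (1046 ± 275). The lowest Leu value was that of Leu_1 and the highest Val value that of Val_3, each far from the rest of its medium. Met gave 1001, 1089 and 1477 (1177 ± 208), Trp 782, 1220 and 1485 (1195 ± 282), and His 1014, 1139 and 1601 (1206 ± 211). Arg gave 839, 1436 and 1666 (1355 ± 311), Ile 1164, 1389 and 1489 (1369 ± 117), and Lys 1112, 1457 and 1532 (1389 ± 172). The values nearest to NEG, and the tightest, were those of Phe with 1448, 1550 and 1578 (1527 ± 58.3) and Thr with 1433, 1555 and 1646 (1537 ± 76.9).

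**Figure D1:**
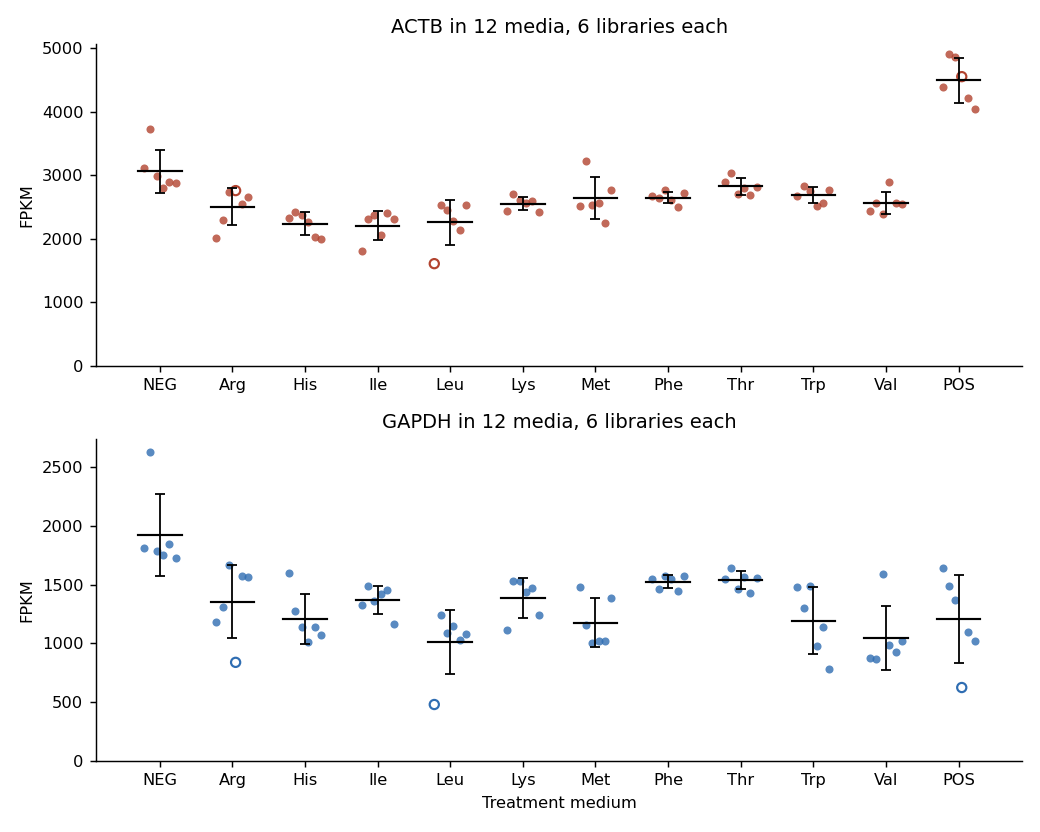
FPKM of ACTB (top) and GAPDH (bottom) in each of the 72 libraries by medium, with a line for the mean and a bar for the SD of 6 libraries; open circles are Leu_1, Arg_4 and POS_4. ACTB in POS (4038 to 4906) lies above all other media, whereas GAPDH in NEG (1725 to 2633) lies above all other media.

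Most neighbours in these orders could not be separated. By mean ACTB the order was POS, NEG, Thr, Trp, Phe, Met, Val, Lys, Arg, Leu, His and Ile, and of the 11 steps only that from POS to NEG passed (exact permutation test of mean log2 FPKM, two-sided p = 0.0022, the smallest that 6 against 6 allows, adjusted p = 0.024 over the 11 steps). By mean GAPDH the order was NEG, Thr, Phe, Lys, Ile, Arg, POS, His, Trp, Met, Val and Leu, and only the step from NEG to Thr passed (exact permutation test, p = 0.0022, adjusted p = 0.024). The adjusted p of the remaining steps lay at or above 0.37 for ACTB and 0.39 for GAPDH. Thr, the medium closest to NEG in both genes, thus fell next to NEG in ACTB without a difference beyond the spread and below it in GAPDH.

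The ranges did not overlap with NEG in 7 media for ACTB, below NEG in 6 and above it in POS, and in all 11 media for GAPDH, always below. Such a separation was not rare among the 12121 genes tested, those whose FPKM averaged 1 or more. It was found for 11.7% of them in Thr, 14.4% in Arg, 17.1% in Phe, 17.8% in Val, 22.1% in POS, 22.3% in Met and 22.8% in Trp. It was found for 26.5% in Ile, 26.9% in Lys, 29.1% in His and 43.1% in Leu. The 11 comparisons share the NEG libraries, so the 11 separations of GAPDH are not independent of each other.

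In the test across genes, limma on log2(FPKM + 1) with Benjamini-Hochberg adjustment, a call was an adjusted p under 0.05. ACTB rose in POS and fell in 4 media with a single EAA, whereas GAPDH fell in POS and in 7 media with a single EAA. The share of all genes called was 0.033% for Thr, 6.63% for Arg, 12.2% for Phe and 32.7% for POS. For the others it was 39.7% (Lys), 40.9% (Ile), 42.5% (Trp), 47.7% (Met), 50.3% (Leu), 57.8% (His) and 61.4% (Val). Among the 12119 genes other than ACTB and GAPDH, the number called went from 803 to 2071 for Arg without Arg_4, from 6090 to 7652 for Leu without Leu_1 and from 3967 to 5039 for POS without POS_4. ACTB was not called in Val, Met and Trp, where more genes were called than in Lys and POS.

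The rise of ACTB in POS was 0.56 on the log2 scale (SE 0.14, adjusted p = 0.0099). ACTB fell by 0.47 with Ile (SE 0.11, adjusted p = 0.0055), by 0.45 with His (SE 0.10, adjusted p = 0.0027), by 0.45 with Leu (SE 0.15, adjusted p = 0.026) and by 0.26 with Lys (SE 0.087, adjusted p = 0.032). The other media gave -0.30 for Arg (adjusted p = 0.18), -0.25 for Val (adjusted p = 0.058), -0.22 for Met (adjusted p = 0.13), -0.21 for Phe (adjusted p = 0.081), -0.19 for Trp (adjusted p = 0.14) and -0.11 for Thr (adjusted p = 0.33). All 10 estimates for a single EAA were thus below 0, with 4 of them called. These 5 calls were lost when genes of low FPKM were kept in the test, with adjusted p of 0.088 for His, 0.11 for Ile, 0.32 for Leu, 0.34 for Lys and 0.44 for POS. With the replicate number as a block in limma, Leu (adjusted p = 0.061), Lys (adjusted p = 0.065) and POS also missed the threshold, and His and Ile passed it. Without Leu_1 the value for Leu was -0.35 (adjusted p = 0.0088), without Arg_4 that for Arg was -0.33 (adjusted p = 0.070), and without POS_4 that for POS was 0.55 (adjusted p = 0.0035).

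GAPDH fell by 0.97 on the log2 scale with Leu (SE 0.22, adjusted p = 0.0047) and by 0.90 with Val (SE 0.16, adjusted p = 0.00084). It fell by 0.71 with Met (adjusted p = 0.0020), by 0.71 with Trp (adjusted p = 0.0069), by 0.67 with His (adjusted p = 0.0012), by 0.48 with Ile (adjusted p = 0.0073) and by 0.47 with Lys (adjusted p = 0.010). In POS the fall was 0.72 (SE 0.23, adjusted p = 0.028). The other values were -0.53 for Arg (adjusted p = 0.091), -0.32 for Phe (adjusted p = 0.052) and -0.31 for Thr (adjusted p = 0.090). Without Leu_1 the value for Leu was -0.77 (adjusted p = 0.00012), without Arg_4 that for Arg was -0.40 (adjusted p = 0.062), and without POS_4 that for POS was -0.55 (adjusted p = 0.016).

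The call of GAPDH in POS was lost without POS_5 (adjusted p = 0.057), without POS_6 (adjusted p = 0.060) and when genes of low FPKM were kept (adjusted p = 0.093). NEG_2, high in both genes, bore on the calls near the threshold: without it GAPDH in Phe was -0.23 (adjusted p = 0.00051), GAPDH in Thr -0.22 (adjusted p = 0.0030), ACTB in Phe -0.15 (adjusted p = 0.0080) and ACTB in Val -0.20 (adjusted p = 0.028), each then past the threshold with a smaller size. ACTB in Thr was -0.054 without NEG_2 (adjusted p = 0.38), against -0.11 with it.

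Neither gene differed from NEG by more than 1 on the log2 scale in any of the 11 comparisons with all libraries. With 1 library left out, GAPDH reached -1.05 in Leu and -1.03 in Val. Against the whole table, the size of the ACTB difference exceeded that of 28.2% (Val) to 75.1% (Ile) of genes with a single EAA and 65.2% in POS. The size of the GAPDH difference exceeded that of 75.8% (Arg) to 88.8% (Trp) with a single EAA and 77.0% in POS. The median log2 fold change of all 12121 genes lay between -0.165 (Leu) and -0.037 (Lys and Thr), and that of Leu was -0.094 without Leu_1.

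A scaling of libraries by their total reads moved the median of all genes up by 0.049 (Thr) to 0.13 (Val), and kept the sign of both genes in all 11 comparisons. On that scale ACTB was 0.70 higher in POS (adjusted p = 0.00093) and GAPDH 0.58 lower (adjusted p = 0.047). The single-EAA values of ACTB were nearer to 0, with -0.10 in Val and -0.066 in Trp, and the call of ACTB in Leu was lost (-0.35, adjusted p = 0.060). The shift of the median was above 0.1 in Arg (0.10), POS (0.12) and Val (0.13).

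The ratio of ACTB to GAPDH does not depend on the scaling of libraries, since the factor of a library cancels. In NEG the ratio of their FPKM ran from 1.42 through a median of 1.63 to 1.72 (1.61 ± 0.109). In POS it ran from 2.67 through 3.70 to 7.30 (4.10 ± 1.63), with the highest value in POS_4. The 6 POS libraries all lay above NEG, and the ratio was 2.43 times that of NEG, a difference of 1.28 on the log2 scale (SE 0.20, two-sided exact permutation test, p = 0.0022, adjusted p = 0.0060 over 11 comparisons). Without POS_4 it was 2.14 times that of NEG, or 1.10 on the log2 scale.

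With a single EAA the ratio was highest in Val, with a lowest value of 1.50, a median of 2.77 and a highest of 2.96. Trp gave 1.81, 2.21 and 3.55, Leu 1.98, 2.17 and 3.35, and Met 1.70, 2.37 and 2.78. All libraries of Leu and Trp lay above the NEG range, as did 5 of 6 in Met and Val. The log2 differences from NEG were 0.65 for Val (adjusted p = 0.018), 0.52 for Leu (adjusted p = 0.0060), 0.52 for Trp (adjusted p = 0.0060) and 0.50 for Met (adjusted p = 0.0068), by the same exact permutation test. Without Leu_1 the difference for Leu was 0.42 (adjusted p = 0.0060). As a difference of medians, Val gave 0.77 (adjusted p = 0.057).

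Smaller differences of the ratio passed the test where the replicates were tight. Thr gave 1.78, 1.85 and 1.88 at the lowest, median and highest library, all above NEG (log2 difference 0.20, adjusted p = 0.0060). Phe gave 1.68, 1.72 and 1.81 (0.11, adjusted p = 0.0068), and Lys 1.70, 1.77 and 2.19 (0.21, adjusted p = 0.0068). The exact permutation test was not passed in His with 1.46, 1.88 and 2.24 (0.22, adjusted p = 0.058), Arg with 1.62, 1.70 and 3.29 (0.23, adjusted p = 0.083) and Ile with 1.36, 1.60 and 1.98 (0.0076, adjusted p = 0.93). In Arg the highest value was that of Arg_4, and the difference without it was 0.072 (adjusted p = 0.19). Both genes were lower with Ile by nearly the same amount, 0.47 for ACTB and 0.48 for GAPDH.

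**Figure D2:**
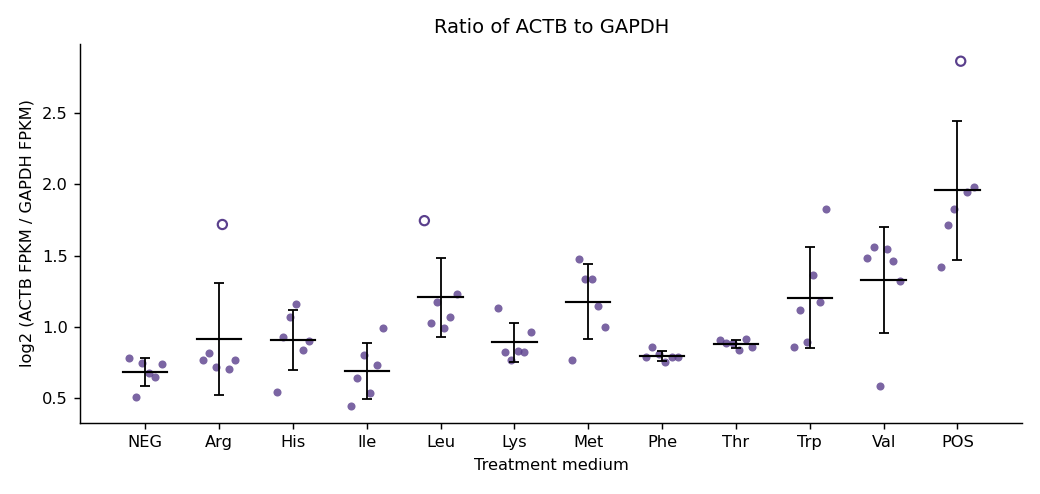
log2 of the ratio of ACTB FPKM to GAPDH FPKM in each library by medium, with the mean and SD of 6 libraries; open circles are Leu_1, Arg_4 and POS_4. POS has the highest mean ratio (4.10 on the linear scale) and NEG the lowest (1.61).

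In order of mean ratio, the step from Thr to Phe (log2 difference 0.084, exact permutation test, p = 0.0043, adjusted p = 0.048) passed the test, and that from POS to Val did not (0.63, p = 0.011, adjusted p = 0.060). The other 9 steps had adjusted p of 0.60 or more. Only in Trp did same-numbered replicates of the medium and NEG deviate together in all 6 pairs. Paired in this way, the ratio in Trp gave an exact sign-flip p of 0.031, the smallest that 6 pairs allow, and an adjusted p of 0.057.

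The medium accounted for more of the variation in ACTB than in GAPDH. Of the variance of log2 FPKM over the 72 libraries, 81.7% lay between media for ACTB (permutation test, p = 1e-05, the smallest that 100000 permutations can give), 46.8% for GAPDH (p = 5e-05) and 64.4% for their ratio (p = 1e-05), where 15.5% is expected with no difference between media. The adjusted p over the 3 values were 1.5e-05, 5e-05 and 1.5e-05. The SD of log2(FPKM + 1) among libraries of the same medium was 0.14 for ACTB and 0.31 for GAPDH, whereas the SD of the medium means was nearly equal, at 0.28 and 0.27. The replicates of ACTB were thus tighter on the deposited scale. The SD of the medium means was 0.28 for ACTB and 0.24 for GAPDH on the scale of total reads, and 0.27 and 0.25 without Leu_1, Arg_4 and POS_4, where the shares between media were 83.6% and 57.8%.

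Libraries of the same medium that were high in ACTB tended to be high in GAPDH. With the means of the media removed, Pearson r over the 72 libraries was 0.42 (permutation within media, p = 0.0070) and Spearman rho was 0.47 (p = 0.00030). Without Leu_1 and Arg_1, the libraries farthest from the median in ACTB, r was 0.27 (permutation p = 0.044). Both genes share the scaling factor of their library, and on the scale of total reads r was 0.33 (permutation p = 0.069) and rho 0.31 (p = 0.021), with an r of 0.080 (p = 0.61) without Leu_1 and Ile_1. On the deposited scale without Leu_1, Arg_4 and POS_4, r was 0.40 (permutation p = 0.0023) and rho 0.52 (p = 0.00011).

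Many other abundant transcripts varied less than either gene. Over the 72 libraries the SD of log2(FPKM + 1) was 0.29 for ACTB and 0.38 for GAPDH, against a median of 0.39 for the 12121 genes tested. ACTB was more spread than 23.8% of these genes and GAPDH than 49.5%. Among the 738 genes whose FPKM averaged 100 or more, the lowest SD was 0.11 and the median 0.40. Of these abundant genes 208 (28.2%) were less spread than ACTB and 343 (46.5%) less than GAPDH. By the largest difference between the means of any pair of media, ACTB with 1.03 and GAPDH with 0.97 both exceeded the median of 0.93 among the abundant genes, and 57.7% and 54.6% of them had a smaller one. On the scale of total reads this held for ACTB (1.09, against a median of 0.90) and not for GAPDH (0.88, with 47.3% of the abundant genes below it). Without Leu_1, Arg_4 and POS_4, the SD was 0.27 for ACTB and 0.32 for GAPDH, and the median of the abundant genes fell to 0.33. Then 33.2% of these genes were less spread than ACTB and 46.5% less than GAPDH.

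**Figure D3:**
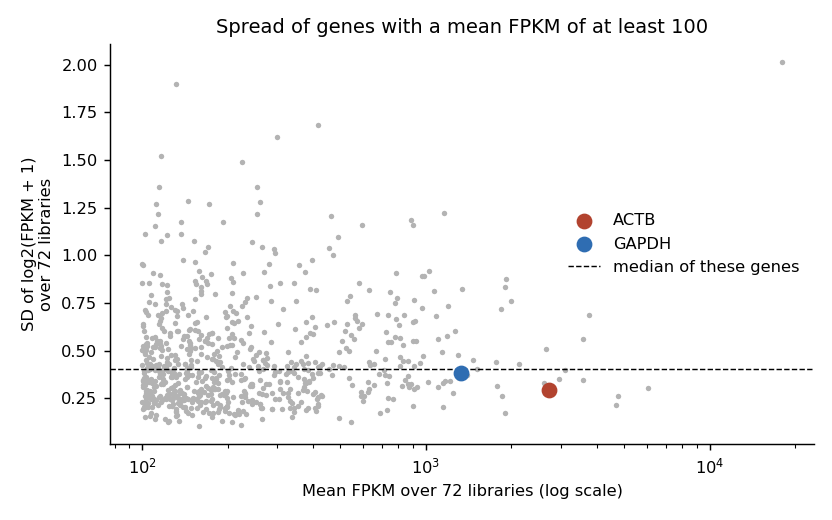
SD of log2(FPKM + 1) over 72 libraries against mean FPKM on a log scale for the 738 genes whose FPKM averaged 100 or more, with ACTB and GAPDH marked and the median SD of 0.40 as a dashed line. Both genes lie below the line, and of the 738 genes 208 lie lower than ACTB and 343 lower than GAPDH.

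The error that a reference gene would bring is its own change with the sign turned. It is given here as the apparent log2 change, in qPCR a number of cycles at full efficiency, of a target with the same FPKM in both media; qPCR itself was not measured. With ACTB as the reference, such a target would read 0.11 (Thr) to 0.47 (Ile) too high against NEG in a medium with a single EAA, which is 1.08 to 1.39-fold. The lower limit rests in part on NEG_2, without which the fold change of ACTB in Thr was -0.054. With GAPDH it would read 0.31 (Thr) to 0.97 (Leu) too high, which is 1.24 to 1.96-fold. Without Leu_1 the GAPDH error for Leu was 0.77, and the largest was then 0.90, in Val. On the scale of total reads these errors were 0.055 to 0.39 for ACTB and 0.25 to 0.88 for GAPDH. For Arg, Met, Thr and Trp the 95% interval of the ACTB error included 0, and for GAPDH none of the 11 intervals did. In 1 fit of all media, the intervals of the log2 fold change of GAPDH in Phe (-0.67 to 0.032) and Thr (-0.66 to 0.041) included 0, and of those of ACTB only that in Thr did. The interval for ACTB no longer included 0 in Arg without Arg_4, in Met without Met_2 and in Trp without NEG_2, and it did include 0 in Val without any 1 of NEG_1, NEG_3, Val_1, Val_2, Val_5 and Val_6. When genes of low FPKM were kept, the ACTB intervals in Leu (-1.11 to 0.21), Lys (-0.60 to 0.086) and Phe (-0.51 to 0.098) also included 0. Those in His and Ile did not. With the replicate number as a block, the ACTB interval in Phe included 0 as well (-0.43 to 0.018).

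The complete medium gave errors of opposite sign. A steady target in POS would read 0.68-fold of NEG with ACTB (95% interval 0.55 to 0.84) and 1.65-fold of NEG with GAPDH (95% interval 1.18 to 2.32). These intervals are from the main fit, and both genes in POS missed the call when genes of low FPKM were kept. A choice between the genes would thus move the same target 2.43-fold. Between the media farthest apart, a steady target would be misread 2.04-fold with ACTB (POS and Ile) and 1.96-fold with GAPDH (NEG and Leu). Without POS_4 and the other 2 libraries with few genes, the errors in POS were -0.55 with ACTB and 0.55 with GAPDH.

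The geometric mean of both genes, a usual way to combine references, cancelled much of the error in POS and not with a single EAA. In POS its error was 0.084 on the log2 scale (SE 0.14), or 1.06-fold. With a single EAA it ran from 0.21 (Thr) to 0.71 (Leu), or 1.16 to 1.64-fold, between the errors of its members. Without Leu_1 the error for Leu was 0.56, and without POS_4 that for POS was -0.0020. Its largest distance between media was 0.71, smaller than those of ACTB and GAPDH alone.

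**Figure D4:**
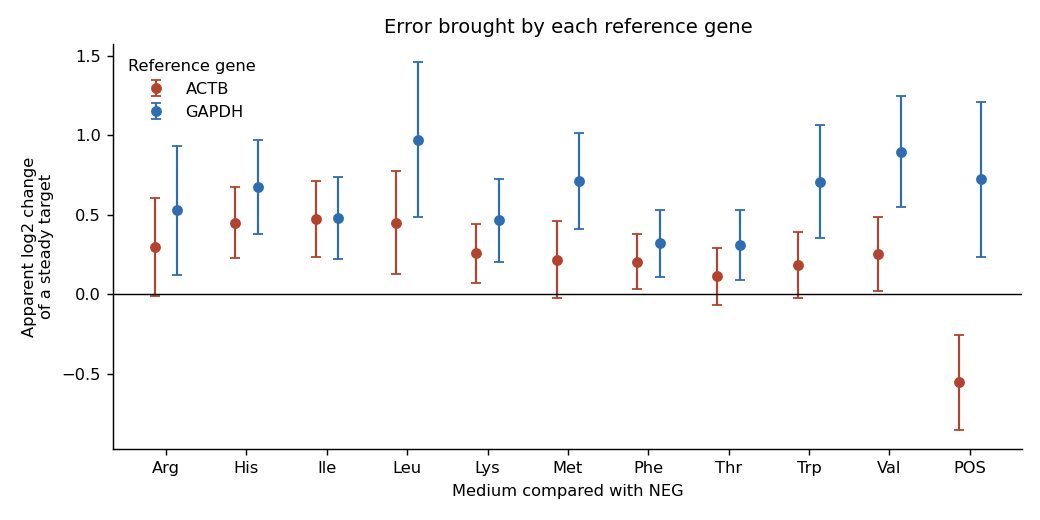
Apparent log2 change of a target whose FPKM is the same in both media, by the medium compared with NEG, when read against ACTB or GAPDH; points are minus the log2 fold change of the reference and bars its 95% interval from limma. In the 10 media with a single EAA both references give errors above 0 (0.11 to 0.47 and 0.31 to 0.97), and in POS the errors have opposite signs.

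The same error was read from the whole table, by dividing each library by a reference gene and repeating the test. A differentially expressed gene (DEG) had to differ by more than 1 on the log2 scale with p under 0.05 before adjustment, and 12119 genes other than the references were tested. In POS against NEG, 1259 genes (10.4%) were DEG on the deposited scale, 337 higher and 922 lower. After division by ACTB there were 3294 (27.2%), 58 higher and 3236 lower. After division by GAPDH there were 3428 (28.3%), 3252 higher and 176 lower. Division shifts the log2 fold changes of all genes in a comparison by the same amount, the change of the reference with its sign turned, so these counts carry that error over to the DEG limits and the split into higher and lower follows from it. The median log2 fold change of the 12119 genes in POS was -0.061 on the deposited scale, -0.62 with ACTB and 0.66 with GAPDH. Without POS_4 there were 864 DEG on the deposited scale (271 higher and 593 lower), 2556 with ACTB (61 and 2495) and 2014 with GAPDH (1830 and 184). Division by the geometric mean gave 1209 (9.98%), 449 higher and 760 lower, and without POS_4 it gave 865, with 267 higher and 598 lower. Of the 1259 DEG on the deposited scale, 77.8% remained with ACTB, 40.7% with GAPDH and 85.4% with the geometric mean. Of the 864 DEG without POS_4, 75.7% remained with ACTB, 52.7% with GAPDH and 99.5% with the geometric mean.

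With a single EAA, division by either gene shifted the fold changes of all genes upward. On the deposited scale the number of DEG ran from 46 (Phe) to 2050 (Leu), and DEG were mostly lower than in NEG in 8 of the 10 media. The smaller counts depended on the pseudocount, and with 0.1 they were 118 rather than 46 for Phe and 141 rather than 62 for Thr. After division by ACTB the numbers ran from 89 (Thr) to 2584 (Leu), and after division by GAPDH from 182 (Phe) to 5081 (Leu). With the shift, the DEG were mostly higher in all 10 media with either gene, and in Leu the median of all genes went from -0.165 to 0.28 with ACTB and 0.81 with GAPDH. Without Leu_1 these medians were -0.094, 0.26 and 0.68. Leu went from 329 higher and 1721 lower DEG to 2037 higher and 547 lower with ACTB, and to 4969 higher and 112 lower with GAPDH. Val went from 267 higher and 1158 lower to 837 higher and 554 lower with ACTB, and to 4759 higher and 63 lower with GAPDH. Without Leu_1 the DEG of Leu numbered 985 on the deposited scale, 1271 after division by ACTB and 3787 after division by GAPDH. Without Arg_4 the DEG of Arg fell from 382 to 142 on the deposited scale, from 330 to 178 with ACTB and from 1115 to 259 with GAPDH.

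**Figure D5:**
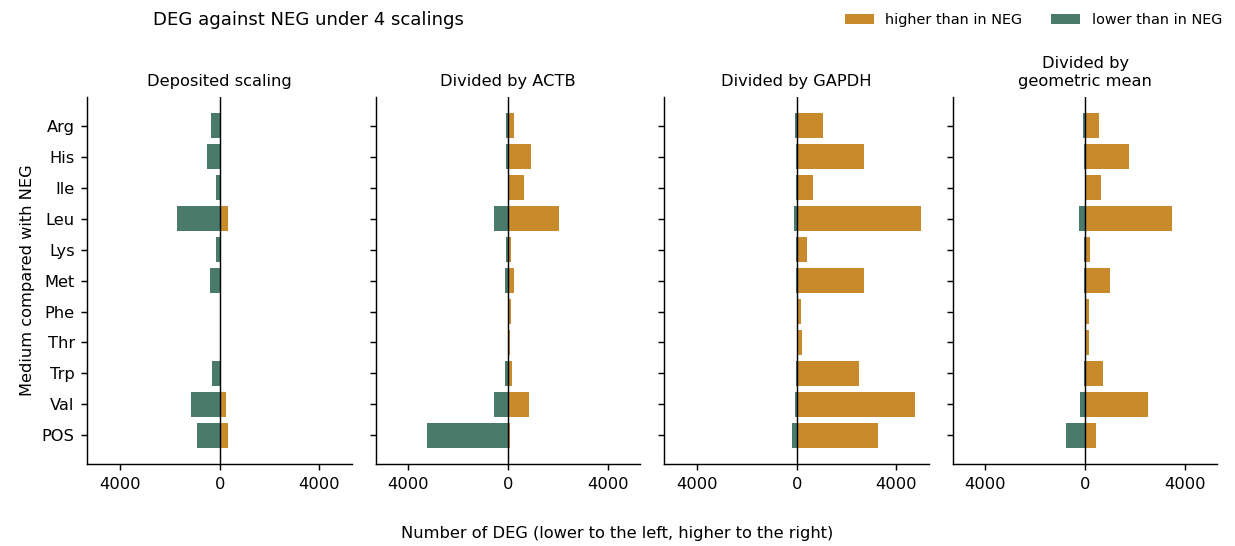
Numbers of DEG against NEG among 12119 genes in each medium, with genes higher than in NEG to the right and lower to the left, on the deposited scale and after division of each library by ACTB, GAPDH or their geometric mean. In POS most DEG are lower with ACTB (3236 of 3294) and higher with GAPDH (3252 of 3428).

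Division by a reference also changed the spread among replicates. The median SD of a gene among libraries of the same medium was 0.30 on the deposited log2 scale, 0.33 after division by ACTB, 0.39 by GAPDH and 0.34 by their geometric mean. The SD rose for 64.3% of genes with ACTB and for 61.8% with GAPDH.

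The genes whose pattern was most like ACTB and GAPDH were taken as the 2 with the highest Pearson r of log2(FPKM + 1) over the 72 libraries, as a description. For ACTB these were ENSBTAG00000001592 (r = 0.89), with a mean FPKM of 22.5 ± 4.33 in NEG and 77.5 ± 15.8 in POS, and ENSBTAG00000018936 (r = 0.86), with 23.1 ± 2.09 in NEG and 60.9 ± 12.1 in POS. The means of both were higher in POS than in NEG, as was that of ACTB. For GAPDH these were ENSBTAG00000014643 (r = 0.97), with 175 ± 50.4 in NEG and 99.9 ± 52.3 in POS, and ENSBTAG00000010336 (r = 0.96), with 573 ± 155 in NEG and 300 ± 132 in POS. In Leu, where GAPDH was lowest, these genes had 80.3 ± 28.9 and 266 ± 96.5. All 72 values share the scaling of their library, and the media are the same for each gene.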

How the data were processed

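The data were RNA-seq of BMECs in 12 media, with 6 libraries for each and 72 in all. The authors trimmed reads with Trimmomatic, and the submitters' processing notes name HISAT2 (2.0.5), StringTie (1.3.3b), featureCounts (1.5.0-p3) and DESeq2 (1.20.0). For counting and for DEG, the methods of the study name other tools than these notes (cufflinks and htseq-count, and the DESeq package), and which made the table is not stated. Which genome build they used was not given in the sources used here. Values were deposited as FPKM, scaled by the authors with a factor for each library. Whole reads were recovered from them with the smallest gene length that put every library within 0.0003 of a whole number. Such a length was found for 100% of the 23683 genes above 0. For genes with few reads a wrong length can also pass, so this share does not show that their reads are right. Library totals had a median of 15865515, and counting errors cover counting only, since PCR copies were not marked.

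Tests across genes used limma (3.58.1, R 4.3.3) on log2(FPKM + 1) and a trended prior, over the 12121 genes whose FPKM averaged 1 or more, in the 12 libraries of a medium and NEG. The pseudocount of 1 understates changes of low genes. Ratios were compared by exact tests over 924 splits. Python (3.11.15), numpy (2.4.6), pandas (2.3.3), scipy (1.17.1) and matplotlib (3.10.9) did the rest. The recovery of reads and the limma fit of POS and NEG were tested on simulated data, and the exact test on groups with a known answer. Alternatives were a pseudocount of 0.1, no filter on low FPKM, total-read scaling, voom on the recovered reads, 1 fit of all media, the replicate number as a block, and libraries left out.

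Same-numbered replicates deviated together in all 6 pairs only for Trp and NEG (correlations over genes 0.10 to 0.24). For the 11 media together 18 of 66 pairs were above 0.1. The members and lists were chosen with earlier results of these data known. Named genes were ACTB, GAPDH and the 2 genes most correlated with each. Lists of other reference, glycolysis and actin genes and cell type markers, set by symbol, were not run because 0 identifiers matched. Sequences were not used here.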

Additional observations from a re-analysis of the deposited data

Results flagged for a closer look

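In each medium the highest and lowest library were compared with the other 5 by Dixon's criterion, for ACTB, GAPDH and their ratio, which chance would meet in about 1 of 20 groups, or 1.8 of the 36 tested. A library stood far from the others of its medium in 9 groups, which involved 6 libraries. For ACTB these were NEG_2 at 3725 FPKM and Val_4 at 2888 FPKM, both above the rest. For GAPDH they were NEG_2 at 2633 FPKM and Val_3 at 1594 FPKM, above the rest, and Leu_1 at 479 FPKM, below it. For the ratio they were Arg_4 at 3.29, Leu_1 at 3.35 and POS_4 at 7.30, above the rest, and Val_3 at 1.50, below it. Arg_4, Leu_1 and POS_4 are the libraries with the fewest genes above 0, and Val_3 is the one with the most. For ACTB and GAPDH the criterion was applied to the deposited FPKM and not to shares of reads.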

How the results depend on the processing

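The sign of the fold change of ACTB and of GAPDH against NEG was the same under every alternative run, and so was that of the ratio except in Ile, whose difference of medians was -0.025. With 1 library left out, the difference in Ile ran from -0.052 to 0.056, that in Arg from 0.072 to 0.28 and past the threshold without Arg_3 or Arg_5, and that in His from 0.17 to 0.30 and past it without His_1. The difference of medians in Val was 0.77 and missed the threshold. With the replicate block, no ratio passed after adjustment, with 6 of the 11 at 0.031, the smallest p of 6 pairs, and an adjusted p of 0.057. The paired ratio differences were 0.52 (Leu), 0.21 (Lys), 0.50 (Met), 0.11 (Phe), 0.20 (Thr), 0.52 (Trp), 0.65 (Val) and 1.28 (POS). The replicate block also ended the calls of ACTB in Leu (-0.45), Lys (-0.26) and POS (0.56, adjusted p = 0.051), and no other call of either gene.

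In 1 fit of all media, ACTB in Arg (-0.30), Met (-0.22) and Val (-0.25) and GAPDH in Arg (-0.53) passed the threshold, and GAPDH in Lys (-0.47) no longer did. Without the filter on low FPKM, ACTB in His (-0.45), Ile (-0.47), Leu (-0.45), Lys (-0.26) and POS (0.56) and GAPDH in POS (-0.72) missed it. Scaling by total reads ended the call of ACTB in Leu (-0.35), and GAPDH in Phe passed with it (-0.25) and with voom (-0.25). With a pseudocount of 0.1, ACTB in Val (-0.25) passed. The causes were not tested.

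With 1 library left out, ACTB in Leu ran from -0.49 to -0.35 and missed the threshold without NEG_1 or Leu_5, and ACTB in Lys ran from -0.28 to -0.20 and missed it without NEG_1, Lys_1, Lys_4, Lys_5 or Lys_6. ACTB in Phe (-0.23 to -0.15) and Val (-0.29 to -0.20) and GAPDH in Phe (-0.35 to -0.23) and Thr (-0.34 to -0.22) passed it without NEG_2. GAPDH in POS (-0.83 to -0.55) missed it without POS_5 or POS_6. The relation of both genes within media gave r = 0.33 on the scale of total reads. DEG of POS after division by GAPDH numbered 2014 without POS_4 and at most 4261 with another library left out. By adjusted p with no limit on fold, they numbered 3967 on the deposited scale, 7289 with ACTB, 6582 with GAPDH and 3083 with the geometric mean. With a pseudocount of 0.1, more than 1.5 times as many DEG were found in 7 of the 11 media on the deposited scale: His 922 (from 556), Ile 396 (192), Lys 351 (201), Met 818 (458), Phe 118 (46), Thr 141 (62) and Trp 634 (374). The same held in 8 media with ACTB, with Thr at 198 (89) and Phe at 216 (112), in 4 with GAPDH, with Thr at 377 (209) and Phe at 341 (182), and in 6 with the geometric mean. Reads were ample for both genes by counting error. Calls moved with single libraries and with the filter, the scaling and the fit, and which of these limits the results most was not tested. No symbols were at hand to test other reference genes.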
